A study of Caenorhabditis elegans with 4 samples.

Results

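The 582 MSH-5 ChIP peaks of Caenorhabditis elegans chromosome IV are described here. They are every row for IV, with no limit on score, in the peak list that covers the whole series, out of 3271 rows, of which 3269 lie on the 5 autosomes and X. The list is called the combined list below. Chromatin immunoprecipitation followed by sequencing (ChIP-seq) recovers DNA that was crosslinked to a protein, and a peak is a stretch where the recovered DNA was called enriched. The series holds 4 libraries: MSH-5 ChIP replicates 1 and 2, and input replicates 1 and 2, which are sheared chromatin before the antibody step. All 4 came from young adult hermaphrodites with a germline, of strain fem-2(b245), genotype fem-2(b245)III, grown at 20 °C.

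All the animals share the fem-2 allele. fem-2 acts in male fate, so the allele bears on sperm production, and the genotype is the same in ChIP and input. Whole adults were used, so chromatin of somatic nuclei, which do not undergo meiosis, entered the immunoprecipitation with that of the germline. The antibody was an affinity-purified rabbit polyclonal (SDQ3853) raised against a stretch of MSH-5, and the libraries used here include none from animals without MSH-5. The labels do not say that the ChIP replicates came from separate cultures, so differences between them may be technical.

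During meiosis, programmed double-strand breaks made by SPO-11 are repaired from the homologous chromosome, and a subset becomes crossovers, the exchanges that hold homologues together until they separate. MSH-5 forms a heterodimer with its partner MSH-4 (HIM-14 in this species), and the dimer holds recombination intermediates that are on the way to a crossover. In C. elegans nearly every crossover needs this dimer, and cytological MSH-5 foci outnumber crossovers before they resolve to the crossover sites. Chromosome IV pairs with its homologue through a pairing centre bound by the zinc finger protein ZIM-3. In a RefSeq gene table of another assembly, used only for gene names and chromosomes, IV carries msh-5 itself, spo-11, him-6 (a BLM-type helicase gene), and the pairing-centre genes him-8, zim-1, zim-2 and zim-3.

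IV is also the chromosome of the 21U-RNA genes, which make the small RNAs that the germline protein PRG-1 uses to silence foreign sequence. The same gene table places 14714 of its 15363 piRNA genes on IV, or 95.8%. The table's build differs from that of the peaks, so no peak was assigned to a gene, and whether a site lies in an exon, an intron or a promoter was not analysed here.

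IV held 17.8% of the nuclear combined peaks (exact 95% Clopper-Pearson interval 16.5 to 19.2) on 17.4% of the nuclear length, at 33.3 peaks per Mb. The list of replicate 1 had 218 peaks on IV, or 20.5% of its nuclear peaks (18.1 to 23.0), the most of the 6 chromosomes. That of replicate 2 had 273, or 16.9% (15.1 to 18.8), at rank 3 of the 6. The IV peaks were 146 to 4913 bp wide in the combined list with a median of 272 bp, 185 to 5733 bp in replicate 1 with a median of 510 bp, and 98 to 4775 bp in replicate 2 with a median of 341 bp. They covered 1.42%, 0.906% and 0.743% of the chromosome. Scores are the authors' own, from the peak caller, and their scale is not stated: on IV they ran from 1.33 to 148.69 in the combined list, from 50.06 to 3159.49 in replicate 1 and from 50.01 to 3100 in replicate 2. A score is therefore read within its own list only. The number of reads behind any peak is unknown, and every interval below covers the counting of peaks, which lie in groups and are not independent.

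The strongest combined sites of IV stood together in a short stretch right of the middle. The best spanned 11912865 to 11916345 (coordinates in WormBase WS220, as deposited) with a combined score of 148.69, and it was 3481 bp wide. Its score was 3100 in each replicate list, a value at which many peaks were tied. The value exceeded 96.1% of the replicate 1 list and 98.3% of the replicate 2 list. Ranks 4 of replicate 1 and 2 of replicate 2 are shared by all peaks tied at 3100. The site at 11323953 to 11325163 had a combined score of 148.39, beside 1856.41 in the list of replicate 1 and 2672.97 in that of replicate 2. The one at 11339567 to 11340883 had a combined score of 148.25, with 1758.75 in replicate 1 and 2852.76 in replicate 2. These sites are nearly level in the combined list, and only the first has the tied score of 3100 in both replicate lists.

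The other site of this stretch, at 11400274 to 11401442, scored 139.64 in the combined list, 1708.03 in replicate 1 and 2785.69 in replicate 2. No other IV peak scored above 100 in the combined list. The 4 sites together span 0.592 Mb, or 3.39% of the chromosome. The stretch around them was not uniformly high: it held 31 combined peaks with a median score of 4.58, of which 16 were found in neither replicate list. The sites at 11323953 and 11339567 were 14.4 kb apart, and 3 of the 4 sites had widths of 1211, 1317 and 1169 bp, all above the IV median of 272 bp.

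The next combined scores were lower. The best of them lay at 7485913 to 7486920 with a combined score of 94.27, at rank 5 of IV, and scored 733.22 in replicate 1 and 1472.38 in replicate 2. Its neighbour at 7487589 to 7488572, 984 bp wide, had a combined score of 78.73, with 663.95 in replicate 1 and 1085.78 in replicate 2. These neighbours formed 1 group, and replicate 2 ranked both higher within its list than replicate 1 did: the better of the pair was at rank 63 of 1619 in replicate 2 and at rank 164 of 1066 in replicate 1.

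The remaining sites of the best 10 were less than 500 bp wide and lay apart from each other. The site at 9196171 to 9196590 had a combined score of 86.93, and the site at 4727757 to 4728242 had 81.69. The site at 3313307 to 3313674 scored 78.32. Its replicate 1 score of 470.78 ranked 249 of 1066, while its replicate 2 score of 471.64 ranked 218 of 1619. The site at 16845322 to 16845746 scored 67.74, with 434.36 in replicate 1 and 362.25 in replicate 2. All 10 sites were chosen because a peak of each replicate list overlaps them, so that overlap is no finding.

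The combined list and the replicate lists did not rank the IV sites alike. The highest replicate 1 score on IV, 3159.49, belonged to a peak 3388 bp wide at 7394553 to 7397940, whose combined peak scored 63.88. Next came a replicate 1 peak at 15188114 to 15190146, with a score of 3140.69 and a combined score of 67.18. Just below these, 3 replicate 1 peaks of IV were tied at 3100, among them the peak at the best combined site. The replicate 1 list does not order those tied peaks. In replicate 2 the best-scored IV peak, at 11912862 to 11916357, was followed by one at 12022911 to 12025207 with a score of 3063.69, whose combined peak scored 55.71. The replicate 2 peaks after it scored 2852.76, 2785.69 and 2672.97, and their combined peaks scored 148.25, 139.64 and 148.39. The 4 best combined sites were thus all among the 6 best-scored replicate 2 peaks of IV. Only the best of them was among the 6 best-scored of replicate 1. The 6 best-scored replicate 1 peaks were 2033 to 4745 bp wide, while sites of 1169 to 1317 bp were among the 4 best of the combined list.

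**Figure D1:**
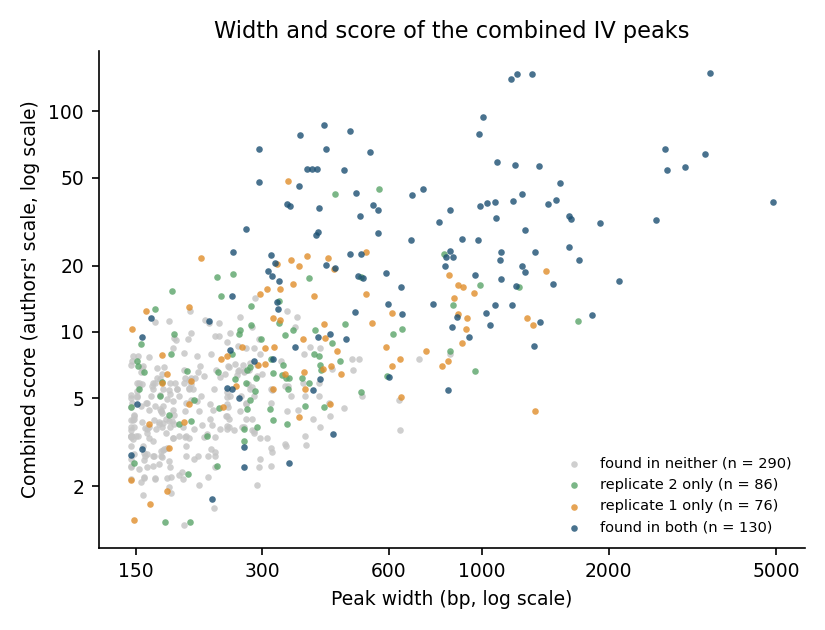
Width in bp (x axis, log scale) and authors' score (y axis, log scale) of the 582 combined IV peaks, 1 point per peak, coloured by the replicate lists that hold an overlapping peak. Peaks found in both replicate lists (n = 130) fill the upper right, peaks found in neither (n = 290) the lower left, and the 4 points above 100 are 1169 to 3481 bp wide.

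Across the 582 IV peaks, wider peaks had higher combined scores (Spearman rho 0.65, Pearson r 0.54, across peaks of 1 list, which share their libraries and caller). Over the 2687 peaks of the other nuclear chromosomes rho was 0.58. Within the 130 IV peaks found in both replicate lists rho was 0.40, and within the 290 found in neither it was 0.29. The plot of width against score shows the exceptions at both sides. The widest combined peak of IV, at 3742339 to 3747251 and 4913 bp wide, scored only 38.97, and the site at 3313307 was 368 bp wide and scored 78.32.

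A combined peak was counted as found in a replicate when it shared at least 1 bp with a peak of that replicate's list. On IV 130 peaks, or 22.3% (19.0 to 25.9), were found in both lists, against a background of 22.9% of all nuclear combined peaks. A further 76 peaks were found in replicate 1 only, or 13.1% (10.4 to 16.1) against a background of 10.1%, and 86 in replicate 2 only, or 14.8% (12.0 to 17.9) against 19.3%. The other 290, or 49.8% (45.7 to 54.0), were found in neither, against 47.7%. The shares found in both and in neither were thus near the background. The share found in replicate 1 only was the highest of the 6 chromosomes (6.64% to 11.9% on the others) and the share found in replicate 2 only the lowest (17.5% to 25.8%). Neither difference was tested, because peaks are not replicates of a chromosome.

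Presence in the replicate lists followed the combined score. All 23 IV peaks above 50 were found in both. Of the 59 between 20 and 50, 49 were found in both and 0 in neither. Between 10 and 20 there were 92 peaks, with 33 found in both and 12 in neither. Of the 208 peaks at 5 or below, 9 were found in both and 165 in neither. Counts by score for the other chromosomes are not given here, so this gradient is not shown to be particular to IV. The series has no ChIP libraries other than these replicates, so presence in their lists supports no combined peak independently.

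**Figure D2:**
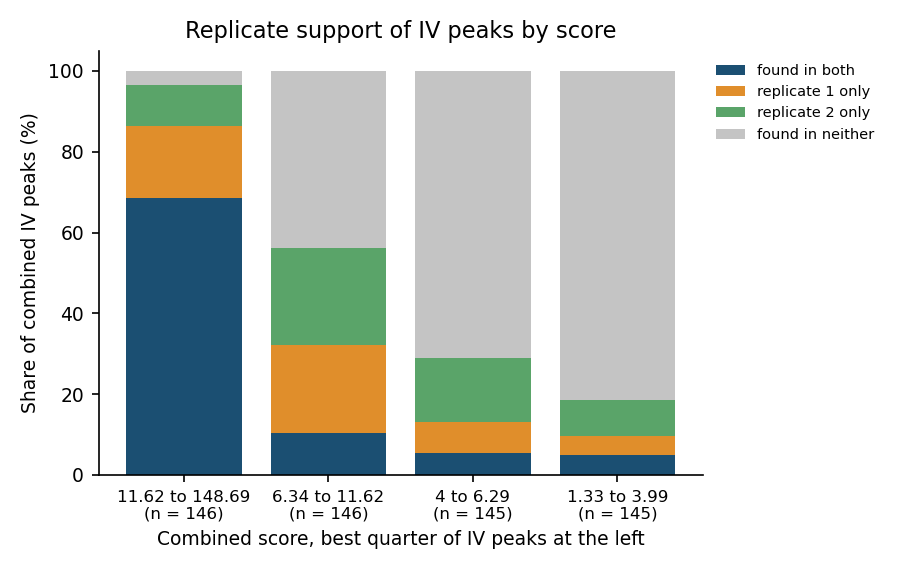
Share of the combined IV peaks (y axis, %) found in both replicate lists, in 1 only or in neither, for 4 bins of the peaks by combined score (x axis, best bin at the left, with score range and n). Peaks found in both make up 68.5% of the best bin and 4.83% of the lowest, and peaks found in neither 3.42% and 81.4%.

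The 4 support classes also differed in width and in the bases they covered. For IV peaks found in both, the median width was 620.5 bp and the median score 22.42. For those found in neither, they were 199 bp and 4.54, and none was above 14.28. Peaks of replicate 1 only had medians of 371.5 bp and 8.57, and peaks of replicate 2 only had 291 bp and 6.71. Although peaks found in both were 22.3% of the IV peaks, they made up 45.8% of the bases covered. The best-scored peaks found in neither lay at 1094194 to 1094482 with a score of 14.28, at 4749944 to 4750145 with 12.43 and at 11142609 to 11142951 with 12.42. At the other end, a peak at 13115481 to 13115708 scored only 1.74 in the combined list and was still found in both, with scores of 64.91 and 55.73, close to the lowest scores of the replicate lists.

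The replicate lists were then set against each other on IV. Replicate 1 shared 129 of its 218 IV peaks with replicate 2, or 59.2% (52.3 to 65.8), against a background of 65.8% over all nuclear peaks. Replicate 2 shared 154 of its 273 with replicate 1, or 56.4% (50.3 to 62.4), against 51.2%. The share of replicate 1 had rank 5 of the 6 chromosomes (58.4% to 71.4% on the others) and that of replicate 2 had rank 1 (47.4% to 54.9%). Neither order was tested. In replicate 1 the shared peaks had medians of 608 bp in width and 298.98 in score, and the unshared ones 396 bp and 109.71. In replicate 2 these medians were 435.5 bp and 160.44 for shared peaks, against 263 bp and 75.53.

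Most shared replicate 1 peaks met a single replicate 2 peak, and some met several. Of the 129 shared replicate 1 peaks, 107 overlapped 1 replicate 2 peak, 17 overlapped 2, 3 overlapped 3, 1 overlapped 4 and 1 overlapped 5. In the other direction, 5 replicate 2 peaks overlapped 2 replicate 1 peaks and none overlapped more. In 116 of the 159 overlapping pairs the replicate 1 peak was the wider. The peak with the highest replicate 1 score on IV, at 7394553 to 7397940, was the one that met 5 replicate 2 peaks.

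**Figure D3:**
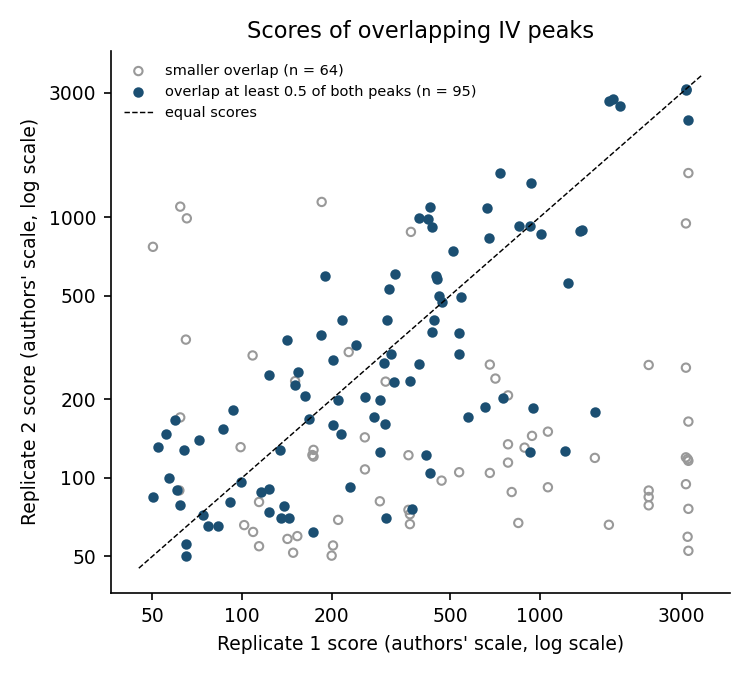
Authors' scores of overlapping IV peaks in replicate 1 (x axis, log scale) and replicate 2 (y axis, log scale), 1 point per pair; filled points are the 95 pairs whose overlap covers at least 0.5 of both peaks, and the dashed line marks equal scores. Filled points run along the line with a Spearman rho of 0.72, and the open points at the far right above 2000 are broad replicate 1 peaks that each overlap several replicate 2 peaks.

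The scores of the replicates went together where the peaks matched in extent. Over all 159 overlapping pairs on IV, the Spearman rho of the scores was 0.29 and the Pearson r was 0.36. A broad peak enters several of these pairs. In the 95 pairs whose overlap covered at least 0.5 of both peaks, each peak entered once, and rho was 0.72 and r was 0.84. The pairs share strain and caller, and peaks are not independent replicates.

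Some IV sites were high in 1 replicate list alone. In replicate 2, neighbouring peaks at 8335531 to 8336178 and 8333734 to 8334407 had scores of 979.03 and 923.61. These exceed 94.4% and 93.9% of the list, and replicate 1 had no peak within 500 bp. Their combined peaks scored 44.60 and 42.05. Just left of them, the combined peak at 8331316 to 8331698 scored 54.82 and was found in both, but the scores were 769.64 in replicate 2 and 50.20 in replicate 1, the latter near the lowest of its list. At these 3 neighbouring sites replicate 1 had either no listed peak or one near the lowest score.

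The best-scored replicate 1 peaks with no replicate 2 peak within 500 bp stood lower within their list than those best replicate 2 peaks did in theirs. The best was at 10683242 to 10684489 with a score of 615.46, above 81.6% of the list, and the next at 4926106 to 4927009 with 523.50, above 79.1%. Their combined peaks scored 18.94 and 11.55. The best-scored combined peak that was not found in both replicates, at 15471382 to 15471727 with 48.10, was likewise found in replicate 1 only, with a replicate 1 score of 349.74; it was picked after its values were seen. In all, 66 replicate 1 peaks (30.3%) and 105 replicate 2 peaks (38.5%) on IV had no peak of the other list within 500 bp. No share over all nuclear peaks at this distance is given here, so these shares are not shown to be particular to IV.

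Along the chromosome, the combined list was nearly even, whereas the peaks of each replicate list were most frequent on the outer right. With IV cut into 4 equal parts by length, each part held 22.5% to 27.0% of the 582 combined peaks. The outer right part, from 13.1 Mb to the end, held 24.6% (21.1 to 28.3). In replicate 1 that part held 89 of 218 peaks, or 40.8% (34.2 to 47.7), and in replicate 2 it held 97 of 273, or 35.5% (29.9 to 41.5). Of the combined peaks found in both it held 49 of 130, or 37.7% (29.3 to 46.6), and of those found in neither 44 of 290, or 15.2% (11.2 to 19.8). Combined peaks found in replicate 1 only had 36.8% of their 76 there. Those found in replicate 2 only had 25.6% of their 86 there and were most frequent in the inner left part, with 34.9%. The outer left part was the opposite: it held 37 of the replicate 1 peaks, 41 of the replicate 2 peaks, and 87 of the 290 combined peaks found in neither, or 30.0%.

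**Figure D4:**
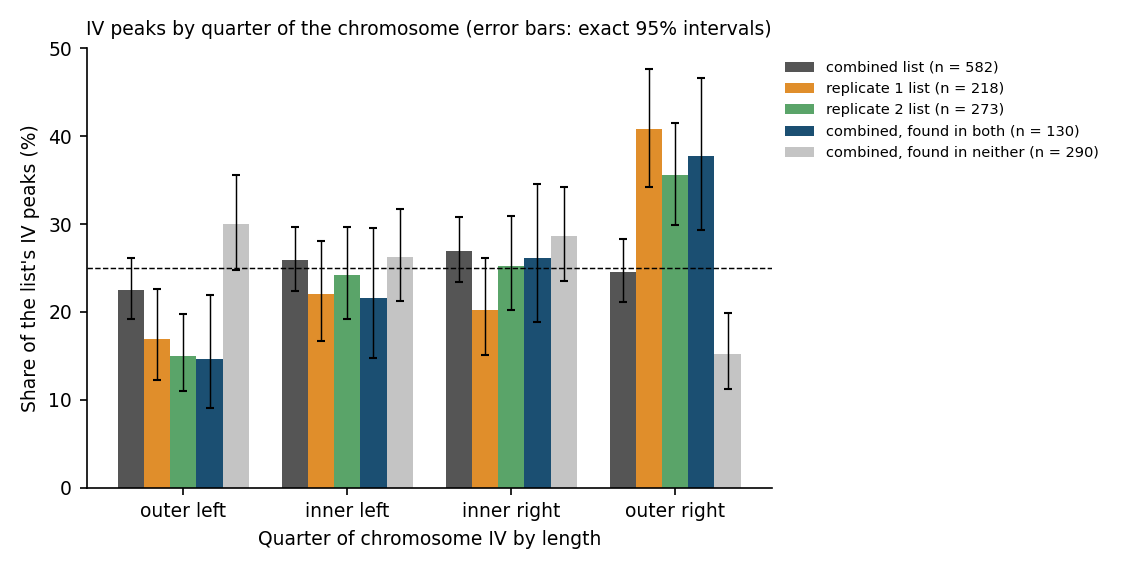
Share of the IV peaks of each list (y axis, %) in 4 equal parts of the chromosome by length (x axis, left to right); error bars are exact 95% intervals that cover counting only, and the dashed line marks 25%. In the outer right part the replicate 1 list (40.8%), the replicate 2 list (35.5%) and the combined peaks found in both (37.7%) stand above the line and those found in neither (15.2%) below it.

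The same division of the other 5 nuclear chromosomes gave 20 parts. Their shares ran from 16.2% to 34.5% in replicate 1, so none was above the 40.8% of IV. In replicate 2 they ran from 15.8% to 36.3%, and 1 was above the 35.5% of IV, an inner part of V. Among combined peaks found in both, none was above the 37.7% of IV, with 35.5% the highest, and among those found in neither it was 15.2% to 35.9%. The part on IV was singled out after these values were seen, so the ranks describe it and carry no test. The window of that part with the most replicate 1 peaks, from 15 to 16 Mb, was then left out. The share of the part fell to 31.7% in replicate 1, 27.9% in replicate 2 and 29.6% among combined peaks found in both. Peaks of the window were left out of the totals too, and the part without it is a smaller fraction of the remaining length. These lower shares are therefore not to be read against an even share among parts of equal length.

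With the outer 25% at each side taken as the arms, where crossovers are more frequent in this species, 274 combined IV peaks lay on the arms, or 47.1% (43.0 to 51.2) against 50% of the length. The replicate lists had 57.8% and 50.5% there. Because the outer left part was poor and the outer right part rich in replicate peaks, an arm share adds up a low and a high value on this chromosome. The arm share of the combined list on the other chromosomes ran from 39.8% to 55.4%.

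Windows of 1 Mb show where the right-hand peaks lay. The window from 13 to 14 Mb held 50 combined peaks, 24 replicate 1 peaks and 31 replicate 2 peaks. The window from 15 to 16 Mb held 28 combined peaks, 29 replicate 1 peaks and 29 replicate 2 peaks. Among the 97 full windows of the nuclear chromosomes, these had ranks 2 and 1 by replicate 1 peaks. In replicate 2, the 31 peaks of the window from 13 to 14 Mb had rank 2 and the 29 of the window from 15 to 16 Mb rank 4. By combined peaks, the window from 15 to 16 Mb had rank 59.

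**Figure D5:**
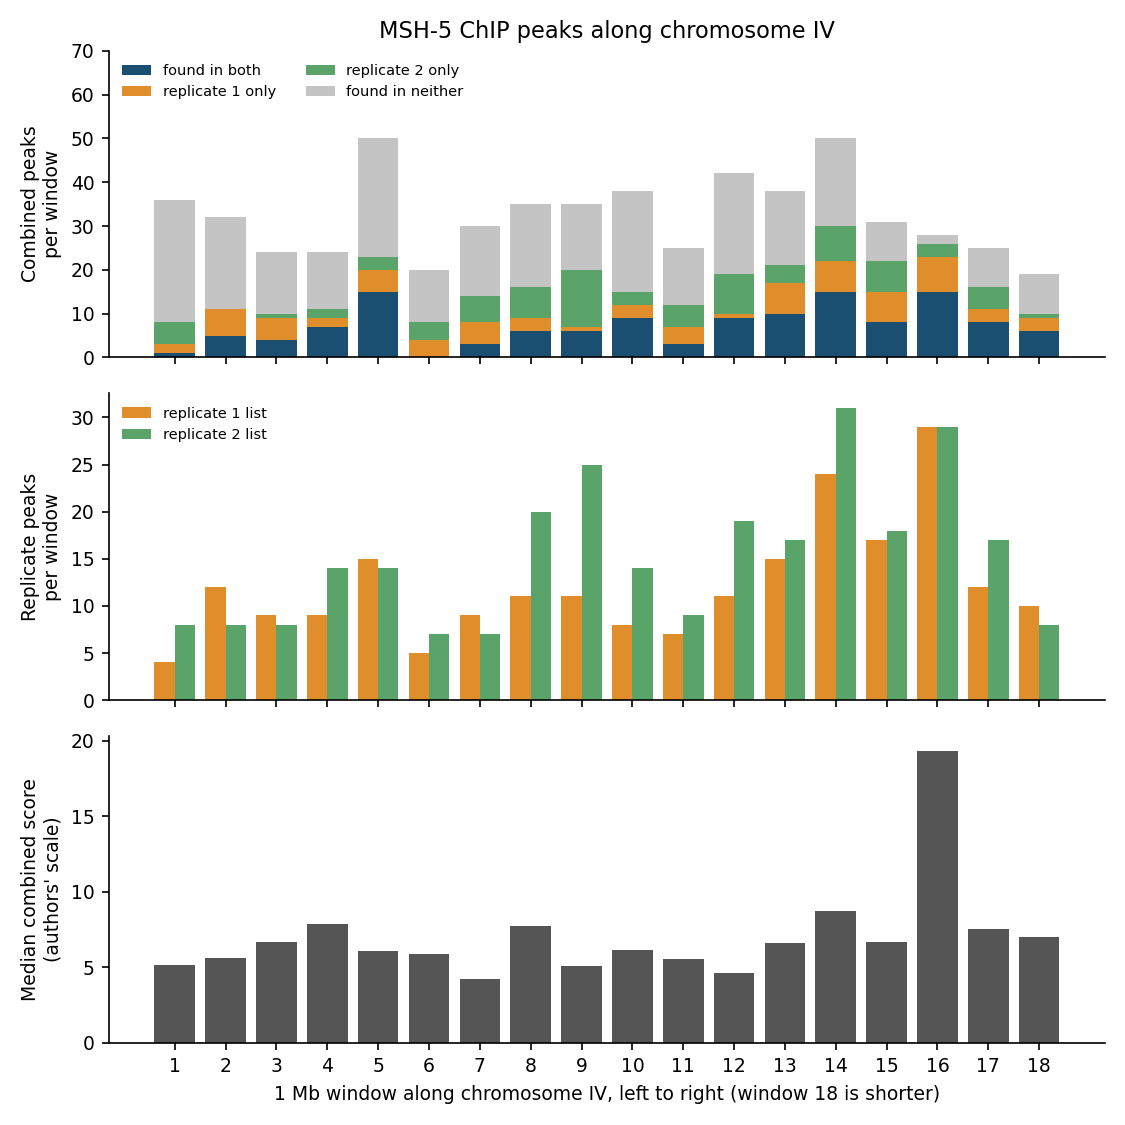
Combined peaks per 1 Mb window of IV by replicate support (top), peaks of each replicate list per window (middle) and median combined score per window (bottom, authors' scale), windows numbered from the left end. Window 16, from 15 to 16 Mb, has a median score of 19.3 against 4.25 to 8.72 in the other full windows, and only 2 of its 28 combined peaks were found in neither replicate list.

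The window from 15 to 16 Mb differed from the others in the make-up of its peaks. Its 28 combined peaks had a median score of 19.3 (3.36 to 67.18), rank 1 of the 97 full windows, where the other chromosomes ran from 4.04 to 11.7. Of them 15 were found in both, or 53.6% (33.9 to 72.5), 8 in replicate 1 only, 3 in replicate 2 only and 2 in neither. Their median width was 437 bp, against 272 bp over IV. The share found in both had rank 4 of the 97. This window was picked after its values were seen. Its peaks were grouped: a run between 15076611 and 15082227 held peaks with combined scores of 37.89, 31.51 and 32.20, each found in both, and the best peak, at 15188125 to 15190848, scored 67.18 and overlapped 2 replicate 1 peaks and 6 replicate 2 peaks.

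The windows with the most combined peaks were those from 4 to 5 Mb and from 13 to 14 Mb, with 50 each, followed by 42 in the window from 11 to 12 Mb. They differed in what they held. From 4 to 5 Mb, 15 peaks were found in both and 27 in neither, and the replicate lists had 15 and 14 peaks. From 11 to 12 Mb, where the 4 best sites lie, 9 were found in both and 23 in neither, and the median score was 4.61, rank 95 of the 97 windows. The best single sites of IV thus lay in a window with a low median. The full window with the fewest combined peaks was that from 5 to 6 Mb, with 20, of which 0 were found in both. The first 1 Mb had 36 combined peaks, 28 of them found in neither.

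The 21U-RNA genes of IV lie mainly in a pair of broad domains, which were represented by windows set from general knowledge and rounded inward, from 5 to 7 Mb and from 14 to 17 Mb. Together these held 134 combined peaks, or 23.0% (19.7 to 26.7), on 28.6% of the length. Both windows had fewer combined peaks per Mb than the rest of IV, but they differed in the share found in both. The left one had 50 combined peaks at 25 per Mb, and 3 of them were found in both, or 6.0%. The right one had 84 at 28 per Mb, and 31 of them were found in both, or 36.9%. The rest of IV had 35.9 combined peaks per Mb, and 21.4% of them were found in both.

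The replicate lists showed the same contrast between the windows. Replicate 1 had 7 peaks per Mb in the left window, 19.3 in the right one and 11.7 in the rest of IV. Replicate 2 had 7, 21.3 and 15.6 per Mb. Both lists were thus below the rest of IV in the left window and above it in the right one. The right window lies inside the outer right part described above, so its peaks are no separate observation. It also holds the window from 15 to 16 Mb, which gave 29 of its 58 replicate 1 peaks and 29 of its 64 replicate 2 peaks. How many peaks overlap a 21U-RNA gene was not analysed here.

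IV peaks lay in groups. The median gap between neighbouring combined peaks was 10.25 kb, the shortest was 44 bp, and 36.1% of gaps were under 2 kb. The longest ran 287 kb, from 16171012 to 16458337, within the right part of the chromosome. Joining peaks at most 2 kb apart gave 117 groups of at least 2 peaks, which held 327 peaks, or 56.2% of the IV peaks (46.1% to 60.1% on the other chromosomes). Of these groups 65 were pairs, and 58 held at least 1 peak found in both replicates. Grouped peaks were found in both in 26.0% of cases (21.3 to 31.1) and single peaks in 17.6% (13.2 to 22.9). A broad replicate peak can place several neighbouring combined peaks in this class, and each counts in the grouped share. All 6 peaks of the group that starts at 4416590 were of this kind. These shares are not given here for the other chromosomes.

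The largest groups were of different kinds. The group with the most peaks spanned 11610738 to 11615430 and held 9, all low, with scores of 2.40 to 6.18. Of them 8 were found in neither replicate list and 1 in replicate 1 only. The group at 14476414 to 14481037 held 8 peaks with scores of 4.04 to 38.43, and 4 of them were found in replicate 1 only. Replicate 1 had 7 peaks in this group and replicate 2 had 3.

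Another group, at 4416590 to 4420338, held 6 combined peaks that were all found in both, yet their scores ran only from 2.43 to 6.27. Each replicate list had a single broad peak there, the widest of its IV peaks: 4416383 to 4422115 in replicate 1, 5733 bp wide with a score of 537.37, and 4416440 to 4421214 in replicate 2, 4775 bp wide with a score of 298.33. The combined list thus broke 1 broad replicate region into 6 low peaks, and these 6 count among the 130 found in both. Elsewhere on IV splitting was less marked. Exactly 1 combined peak was overlapped by 201 of the 218 replicate 1 peaks and 237 of the 273 replicate 2 peaks, and besides this region no replicate peak overlapped more than 3.

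The 23 peaks above 50 were spread more widely. The leftmost began at 3313307 and the rightmost ended at 16845746, so that none lay in the first 3 Mb. The median gap between them was 189 kb, the shortest was 616 bp, and the longest was 3163 kb, between the sites that end at 12025485 and start at 15188125. Of the 6 chromosomes only X, with 41, had more peaks above 50, V had 23 as well, and III, with 8, had the fewest. Above 100, IV with 4 had rank 3 of the 6, behind X with 26 and II with 5.

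At the left tip of IV both replicate lists had a peak and the combined list had none. It spanned bases 1 to 232 and scored 310.79 in replicate 1, above 66.6% of the list. In replicate 2 it spanned bases 1 to 227 and scored 528.69, above 88.1%. The first combined peak of IV started at 126192, scored 6.58 and was found in neither. Other replicate peaks missing from the combined list had lower scores. There were 6 more in replicate 1, with scores of at most 135.32, above 42.3% of that list, and 23 more in replicate 2, with scores of at most 148.68, above 62.8%. With the tip included, 7 of the 218 replicate 1 peaks and 24 of the 273 replicate 2 peaks of IV overlapped no combined peak. The same counts for the other chromosomes are not given here. At the right end, replicate peaks at 17492305 to 17492987 and 17492674 to 17492950 scored 101.69 and 65.85 and overlapped a combined peak that scored 9.45. The last combined peak, 17493467 to 17493824, scored 10.53 and was found in neither. Telomere repeats lie at both ends of the chromosome, and the input coverage there was not analysed here.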

How the data were processed

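The submitters' processing notes name BWA and ce10, and the build is WormBase WS220, per the file headers. The authors deposited peak lists with a score per peak: 1 list for each ChIP library, called with MACS, and a combined list, called with MACS v2, per the source columns. Pooling of reads, the input set against each library, thresholds and read depth are not given in the sources used.

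Peaks were read with Python 3.11.15 and pandas 2.3.3, and exact 95% Clopper-Pearson intervals came from SciPy 1.17.1. Mitochondrial peaks were left out. Peaks were placed by their midpoints, and IV was given the length 17493824, the last base of any of its peaks, which may run slightly past the chromosome in this build. Overlap and grouping were tested on simulated lists. No test was run: there is 1 condition, input has no peak list here, and peaks are not replicates. The members, lists and windows were chosen with earlier results of these data known. Sites named are the 10 best combined IV peaks found in both lists, the 3 best found in neither, the lowest found in both, the best 2 of each replicate list without a partner within 500 bp, and the widest, first and last peaks, the fullest and emptiest windows and the 3 largest groups; others were picked after their values were seen. Peak sequences and gene positions were not used here.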

Additional observations from a re-analysis of the deposited data

How the results depend on the processing

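No paired analysis was possible because a single condition was mapped and no input list enters a comparison. Of 55 alternatives over 14 results, 28 stayed within the exact 95% interval of the reported value and 27 moved outside it. The cause was not tested. Some shifts are fixed by construction: a stricter overlap finds fewer matches and a looser one more. Wider arms likewise hold more peaks, and a longer joining distance groups more. With 1 replicate left out, a peak needs to be in the remaining list only. The tally is therefore no measure of how stable the results are. With an overlap of 0.5 of both peaks, combined IV peaks found in both fell to 10.997% and those in neither rose to 62.7%, and the shared part of replicate 1 was 43.6% and of replicate 2 34.8%; within 500 bp the first 3 were 27.0%, 41.9% and 69.7%. With 1 replicate left out, 35.4% to 37.1% were found in the remaining list and 62.9% to 64.6% were not. The better-scored 50% gave 64.7% for the shared part of replicate 2, 54.8% on the arms, 42.5% in groups and a median width of 399.5 bp; peaks found in both gave 52.3% on the arms and a median width of 620.5 bp. With arms that take up 66.7% of the length, 66.8% lay there. Joining within 10 kb put 72.2% of peaks in groups. The lists of the single replicates gave 50.5% to 57.8% on the arms, 48.7% to 56.0% in groups, 28.6% to 33.0% in the 21U-RNA windows, 16.9% to 20.5% of nuclear peaks on IV, and 5.13% to 6.88% of IV peaks in the window from 4 to 5 Mb, against 8.59%. The share of replicate peaks in the outer right part was 35.6% and 31.4% after joining within 2 kb. For the window from 15 to 16 Mb, the share found in both was 35.7% to 64.3% under other overlap rules. The leave-out of a replicate could not be run for the sharing between replicates, which needs both. Counts of peaks at genes, base composition and motifs, planned for a genome of this build, were not run. With depth unknown, absence from a list does not show absence of binding.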
